A study of Mus musculus with 6 samples.

Results

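The genes followed here were Atf4, Ddit3, Trib3, Asns, Chac1, Phgdh, Psat1, Psph, Shmt2 and Mthfd2. These 10 genes were taken by symbol from the 24421 rows of the gene count table, and all 10 were present and passed the filter on low counts, which kept 11805 genes. The RNA came from group 2 innate lymphoid cells (ILC2), which reside in tissues, lack rearranged antigen receptors and respond to alarm signals such as IL-33. The old group held 3 libraries of brain ILC2 from C57BL/6 mice aged 20 to 22 months, and the young group held 3 libraries from C57BL/6 mice of 2 to 3 months. Both groups were kept for 2 weeks in medium with 20% fetal calf serum, IL-7, IL-2, IL-33 and SCF (stem cell factor), and C57BL/6 is an inbred strain. Separate animals, pools or cultures are not named for the libraries in the labels, so each p-value reflects the spread among these 3 libraries a group, and that spread may be technical. The single comparison of the design, old against young, asks which transcripts differ between cultured cells of the 2 ages.

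ATF4 is the transcription factor of the integrated stress response. Kinases that sense amino acid shortage, misfolded protein in the endoplasmic reticulum, haem shortage or double-stranded RNA phosphorylate the translation factor eIF2. General protein synthesis then drops, while Atf4 messenger RNA is translated more, so that the RNA level is only part of ATF4 control. ATF4 switches on other regulators (Ddit3, Trib3), enzymes of amino acid and glutathione metabolism (Asns, Chac1) and the pathway that makes serine from a glycolytic intermediate (Phgdh, Psat1, Psph). Serine then feeds the mitochondrial folate cycle through Shmt2 and Mthfd2, which supplies one-carbon units for purines and thymidylate in dividing lymphocytes.

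Library totals ran from 17314428 to 17796301 counts in the old group and from 16477157 to 20804291 in the young group. The 10 genes together took 0.207 to 0.229% of counts in old libraries and 0.197 to 0.231% in young libraries, ranges that overlap. Levels below are CPM, read counts scaled to a common library size, with library sizes adjusted by TMM, a method that centres the bulk of genes between libraries. All 14 listed ILC2 markers passed the filter, with 2 called higher and 6 lower, and their summed level was 12786 to 14922 CPM in old libraries and 12751 to 15314 CPM in young libraries. Id2 made up 37.0% of this sum over the 6 libraries, and averaged 6509 CPM in old libraries and 3737 CPM in young libraries. Gata3 averaged 191 CPM in old libraries and 412 CPM in young libraries, and the IL-33 receptor gene Il1rl1 276 and 488 CPM. The ILC2 maturation marker Klrg1 averaged 1.45 CPM in old libraries and 86.5 CPM in young libraries. The defining genes Cd3e and Cd4 of T cells, Cd79a of B cells, Eomes and Ncr1 of NK cells and Csf1r of macrophages were at 0 counts in all 6 libraries. The 7 microglial and macrophage markers summed to 105.2 to 153.7 CPM in old libraries and 47.4 to 57.7 CPM in young libraries, with 2 called higher and 1 lower. The 3 endothelial markers summed to 125.7 to 163.2 CPM in old libraries and 66.6 to 101.9 CPM in young libraries, all of it from Pecam1, which was called higher, and Cldn5 and Cdh5 were at 0. The B cell marker Cd79b was at 33.2 to 58.3 CPM in old libraries and 13.7 to 22.9 CPM in young libraries, and was called higher. The part of these markers in the results below was not tested. In bulk RNA, more cells with a transcript and more of it per cell cannot be told apart.

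ATF4 binds with C/EBP partners at a composite element whose letters are TGATGNAAN. This motif was searched on both strands of RefSeq promoters (GRCm38.p6), each with 250 bases before and 50 after a gene's start. All 10 genes matched, with 11 promoter windows because Psat1 has a pair of starts. The motif was found for 3 of the 10 genes (Asns, Chac1 and Trib3), while 3.95% of 32851 promoters in the table held it. The full cyclic AMP response element TGACGTCA was found in none of the 11 windows and in 1.79% of all promoters. Those 3 windows are shown because they hold the composite motif, whose match is in capitals.
Asns, chr6:7693160-7693459, minus strand: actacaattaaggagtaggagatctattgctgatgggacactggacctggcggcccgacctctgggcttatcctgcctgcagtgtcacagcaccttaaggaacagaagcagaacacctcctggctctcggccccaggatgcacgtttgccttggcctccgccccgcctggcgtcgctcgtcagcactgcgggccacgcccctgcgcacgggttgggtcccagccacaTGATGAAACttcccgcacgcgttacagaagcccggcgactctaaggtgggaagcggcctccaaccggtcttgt
Chac1, chr2:119350992-119351291, plus strand: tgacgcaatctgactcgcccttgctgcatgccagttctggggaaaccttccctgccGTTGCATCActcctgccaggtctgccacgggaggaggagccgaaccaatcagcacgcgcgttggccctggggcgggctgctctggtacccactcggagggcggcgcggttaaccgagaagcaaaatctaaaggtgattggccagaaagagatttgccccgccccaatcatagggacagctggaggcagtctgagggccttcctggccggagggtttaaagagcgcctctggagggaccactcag
Trib3, chr2:152344011-152344310, minus strand: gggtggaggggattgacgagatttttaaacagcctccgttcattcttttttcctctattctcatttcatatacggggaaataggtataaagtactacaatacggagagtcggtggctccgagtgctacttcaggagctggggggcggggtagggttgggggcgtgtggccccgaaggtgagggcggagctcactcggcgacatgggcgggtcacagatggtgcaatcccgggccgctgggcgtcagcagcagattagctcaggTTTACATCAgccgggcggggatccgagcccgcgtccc
Counted with the start site as 0, the Asns match begins at -23 and reads in the printed direction. The Chac1 match begins at -194 and the Trib3 match at 13, both read on the opposite strand. A match describes letters only, and its absence from the other windows says nothing about ATF4 there.

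Of the 10 genes, 5 rose in old libraries by edgeR's quasi-likelihood test, with p-values adjusted over all 11805 genes and a threshold of 0.05: Atf4, Ddit3, Trib3, Phgdh and Psph. None fell. Over all genes tested, 11.2% were called higher, 8.14% were called lower and 19.4% were called in either direction. For 6 of the 10 genes, those 5 and Chac1, every old library lay above every young library, and over all genes tested 19.3% were higher in that way, 18.8% were lower and 38.2% did not overlap in either direction. None of the 10 genes was lower in that way. The median log2 change of the 10 genes was 0.70, beside -0.10 over all genes tested. With library totals as the sole scaling this median was 0.28, beside -0.52 over all genes. With offsets for transcript length and GC content it was 0.36, beside -0.10 over all genes. Both settings are described below. The 10 genes were chosen with earlier results of these data known, so these counts describe them and are no test of the group.

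**Figure D1:**
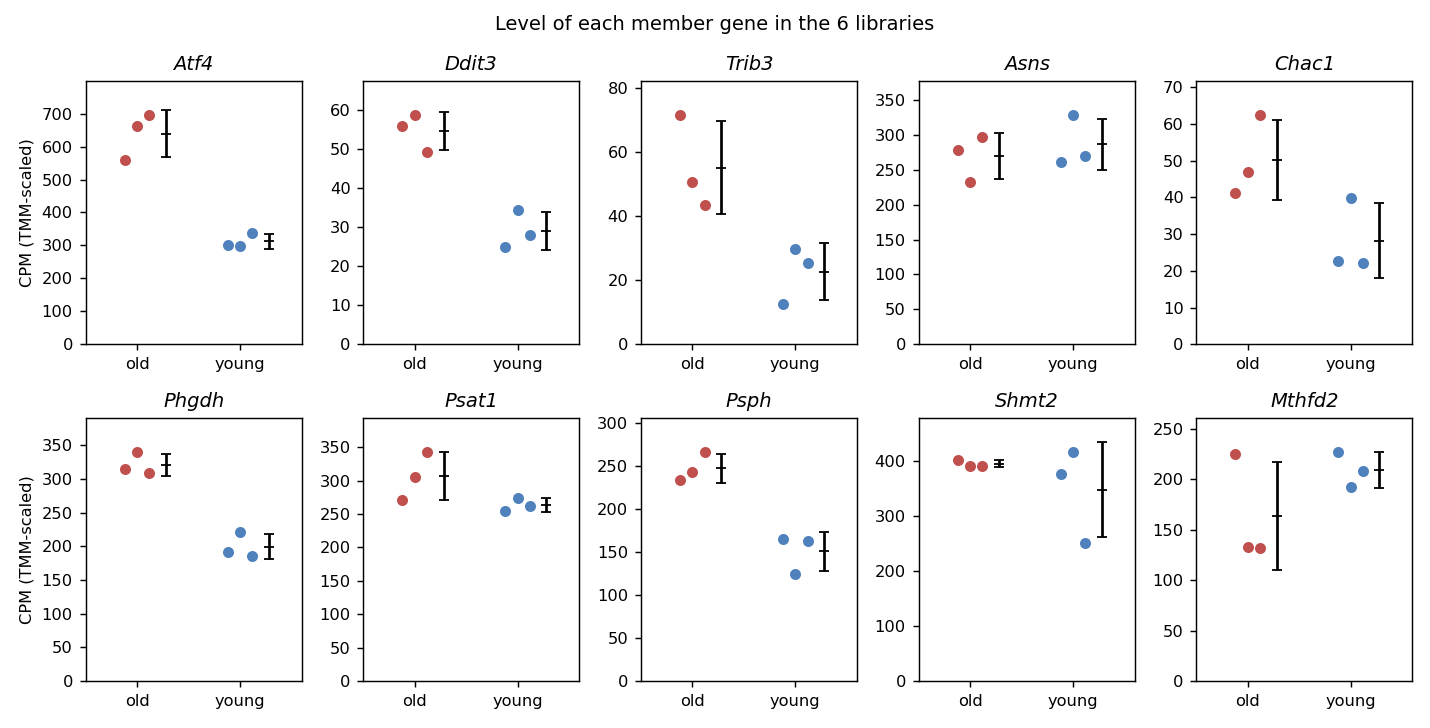
Level of each of the 10 genes in CPM (TMM-scaled, linear axis from 0) in the 3 old libraries (red, left) and the 3 young libraries (blue, right), with the mean and SD beside the points. Old and young points are apart for Atf4, Ddit3, Trib3, Chac1, Phgdh and Psph and overlap for Asns, Psat1, Shmt2 and Mthfd2.

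Atf4 itself (chromosome 15, 80255184 to 80257541, GRCm38) was about double in old libraries. It had 559, 664 and 695 CPM in old libraries 1 to 3, against 302, 297 and 338 CPM in young libraries 1 to 3. The groups were far apart, and even the lowest old library lay well above the highest young library. Atf4 rose by 1.03 ± 0.14 (SE) on the log2 scale, a fold of 2.05 with a 95% interval of 1.66 to 2.52 (edgeR adjusted p = 0.000457). Atf4 stood at the 96.9th percentile of mean level among all genes tested. Its call held in all 18 alternative analyses, with log2 changes of 0.62 to 1.12.

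The stress regulators downstream of Atf4 were expressed at a far lower level. Ddit3 (chromosome 10, 127290774 to 127296288), which encodes CHOP, a factor that promotes death under lasting stress, had 56.1, 58.7 and 49.3 CPM in old libraries 1 to 3, against 24.8, 34.5 and 27.96 CPM in young libraries 1 to 3. The groups did not overlap. Ddit3 rose by 0.91 ± 0.24 (SE) on the log2 scale (edgeR adjusted p = 0.0234). Other annotation records overlap 10.9% of its exon length, the largest part a second Ddit3 record on the same strand, so reads may have been split. The opposite-strand gene Mars also overlaps Ddit3. The call was lost without old library 1 (edgeR adjusted p = 0.0613), old library 2 (0.0799) or young library 1 (0.0995).

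Trib3 (chromosome 2, 152337422 to 152344032) encodes a pseudokinase induced by ATF4 and CHOP that restrains ATF4 in turn. It had 71.3, 50.5 and 43.3 CPM in old libraries 1 to 3, against 12.6, 29.8 and 25.4 CPM in young libraries 1 to 3. Old library 1 was the highest and young library 1 the lowest, and the groups did not overlap. Trib3 had the largest change of the 10 genes and the widest error of them, 1.28 ± 0.35 (SE) on the log2 scale (edgeR adjusted p = 0.0245). Leaving out old library 1 (edgeR adjusted p = 0.0930), old library 2 (0.0534) or young library 1 (0.0764) ended the call, with log2 changes of 1.05, 1.34 and 1.02.

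Chac1 (chromosome 2, 119351229 to 119354381), an enzyme that breaks down glutathione and a target of the ATF4 and CHOP branch, had 41.3, 47.0 and 62.4 CPM in old libraries 1 to 3, against 22.7, 39.9 and 22.0 CPM in young libraries 1 to 3. The groups did not overlap, but young library 2 came close to old library 1. The log2 change of 0.83 ± 0.31 (SE) did not pass the test (edgeR adjusted p = 0.0858). It passed without young library 2 (log2 change of 1.18, edgeR adjusted p = 0.0330) and in DESeq2 (log2 change of 0.86, DESeq2 adjusted p = 0.0445).

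Asns (chromosome 6, 7675169 to 7693254), asparagine synthetase and a classical ATF4 target, did not pass the test. It had 279, 232 and 297 CPM in old libraries 1 to 3, against 261, 328 and 270.3 CPM in young libraries 1 to 3. The groups overlapped, and the log2 change was -0.09 ± 0.16 (SE), with a 95% interval of -0.43 to 0.25 (edgeR adjusted p = 0.758). The ratio of Asns to Atf4 within a library, both per kb of transcript, does not depend on how libraries are scaled. It was 0.427, 0.300 and 0.366 in old libraries, against 0.739, 0.943 and 0.685 in young libraries, so the groups did not overlap. The ratio of Mthfd2 to Atf4 did not overlap either, at 0.334, 0.166 and 0.157 in old libraries, against 0.623, 0.534 and 0.511 in young libraries. The same ratio to Atf4 overlapped between the groups for Ddit3, Trib3, Chac1 and Phgdh. The ratio of Phgdh to Atf4 was 0.462 ± 0.0543 in old libraries and 0.586 ± 0.0887 in young libraries (SD, n = 3 each). These ratios were picked with the changes known and carry no test. The ratio to Atf4 was not taken for Psat1, Psph and Shmt2, so the separation cannot be called particular to Asns and Mthfd2. Atf4 itself about doubled, which lowers this ratio in old libraries for any gene that changed little.

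Of the serine synthesis enzymes Phgdh and Psph rose and Psat1 did not pass. The difference between the steps was not tested, and with offsets for transcript length and GC content, described below, none was called and their log2 changes were alike, at 0.37 for Phgdh, 0.34 for Psat1 and 0.40 for Psph. Phgdh (chromosome 3, 98313170 to 98339990), which oxidises 3-phosphoglycerate and commits carbon to serine, had 315, 340.2 and 309 CPM in old libraries 1 to 3, against 192, 221 and 186 CPM in young libraries 1 to 3. The groups did not overlap, and both were tight. Phgdh rose by 0.69 ± 0.14 (SE) on the log2 scale, a fold of 1.61 (edgeR adjusted p = 0.00608).

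Psph (chromosome 5, 129765558 to 129787449), the phosphatase that releases free serine, had 234, 243 and 266 CPM in old libraries 1 to 3, against 165, 125 and 163 CPM in young libraries 1 to 3. Young library 2 was the lowest, and the groups did not overlap. The rise was 0.71 ± 0.16 (SE) on the log2 scale, a fold of 1.64 (edgeR adjusted p = 0.0102). Phgdh and Psph kept their calls in each of the 6 analyses that left out 1 library. Exons of Psph overlap other genes over 10.4% of their length, the largest part with the opposite-strand gene Cct6a. Phgdh has a processed pseudogene, Phgdh-ps1, so for both genes reads may have been shared.

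Psat1 (chromosome 19, 15904678 to 15947337), the aminotransferase between those steps, had 271, 305 and 343 CPM in old libraries 1 to 3, against 255, 274 and 261 CPM in young libraries 1 to 3. The lowest old library lay below the highest young library. Its log2 change of 0.22 ± 0.14 (SE) did not pass, with a 95% interval of -0.09 to 0.53 (edgeR adjusted p = 0.334). Set against Phgdh within a library and per kb, Psat1 stood at 0.623, 0.649 and 0.802 in old libraries, against 0.957, 0.896 and 1.02 in young libraries. Those ratios did not overlap between the groups, but they too were picked with the changes known and carry no test. They keep any trend with length and GC content. With the length and GC offsets the log2 changes were 0.34 for Psat1 and 0.37 for Phgdh. The ratio of Psph to Phgdh did overlap, at 0.845 ± 0.0857 in old libraries and 0.838 ± 0.193 in young libraries (SD, n = 3 each).

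The mitochondrial one-carbon enzymes did not pass the test. Shmt2 (chromosome 10, 127517123 to 127522444), which splits serine into glycine and a one-carbon unit, had 402, 391 and 391 CPM in old libraries 1 to 3, against 377, 416 and 250.3 CPM in young libraries 1 to 3. The old libraries were nearly equal, and young library 3 was well below the others. The log2 change was 0.18 ± 0.18 (SE), with a 95% interval of -0.21 to 0.58 (edgeR adjusted p = 0.547).

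Mthfd2 (chromosome 6, 83305691 to 83325908), the dehydrogenase and cyclohydrolase that follows Shmt2, was the lowest of the 10 genes by log2 change. It had 225, 133 and 132 CPM in old libraries 1 to 3, against 227, 192 and 209 CPM in young libraries 1 to 3. Old library 1 lay among the young libraries, while old libraries 2 and 3 lay below all of them. The log2 change of -0.36 ± 0.21 (SE) did not pass (edgeR adjusted p = 0.291). Without old library 1 it was -0.66 and passed (edgeR adjusted p = 0.0351), so that library decides the call.

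Both enzymes have relatives, and in each pair the followed gene was the main form in both groups. Shmt2 made up 93.4 ± 1.30% of the summed level of Shmt2 and the cytosolic Shmt1 per kb in old libraries and 92.1 ± 0.292% in young libraries (SD, n = 3 each). The difference was 1.28 percentage points (two-sided exact permutation p = 0.3), and 20 arrangements allow no p under 0.1, so that this test could not pass. Mthfd2 made up 97.5 ± 1.01% of Mthfd2 and Mthfd2l, its close relative, in old libraries and 98.2 ± 0.217% in young libraries (SD, n = 3 each). That difference was -0.72 percentage points (two-sided exact permutation p = 0.4, under the same limit). Shmt1 and Mthfd2l had log2 changes of -0.10 ± 0.29 and 0.15 ± 0.79 (SE). Mthfd1, the trifunctional cytosolic folate enzyme, fell by 1.43 ± 0.35 (SE) on the log2 scale (edgeR adjusted p = 0.0159). It had 28.9, 13.0 and 31.9 CPM in old libraries 1 to 3, against 74.5, 78.4 and 46.1 CPM in young libraries 1 to 3. The fall of Mthfd1 lost its call without young library 1 (edgeR adjusted p = 0.0713) or young library 2 (0.0671).

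**Figure D2:**
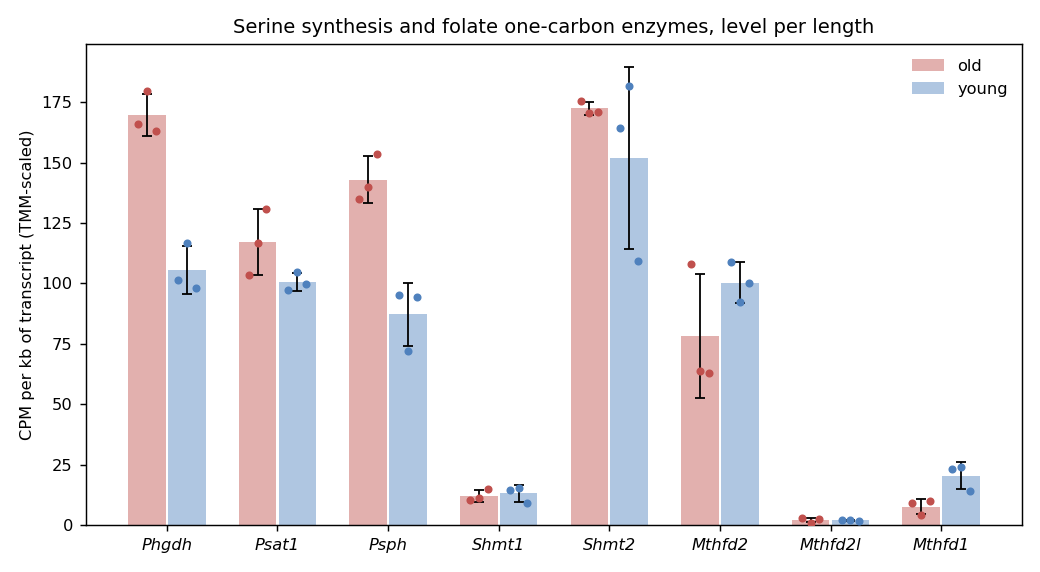
Level per kb of transcript (CPM per kb, TMM-scaled) of the serine synthesis enzymes, Shmt2, Mthfd2 and their relatives in old (red, left of each pair) and young libraries (blue, right). Bars are means, error bars SD over 3 libraries and points single libraries; Phgdh and Psph stand higher in old libraries, and Shmt1, Mthfd2l and Mthfd1 are far below Shmt2 and Mthfd2 in both groups.

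Ordered by level per kb of transcript, Atf4 came first in both groups, at 370.5 ± 41.4 CPM per kb in old libraries and 181 ± 12.8 CPM per kb in young libraries (SD, n = 3 each). In old libraries it was followed by Shmt2 (172 CPM per kb), Phgdh (169.7), Psph (143), Asns (134), Psat1 (117), Mthfd2 (78.3), Ddit3 (61.5), Chac1 (30.7) and Trib3 (27.2). There Atf4 stood clear of Shmt2, Phgdh of Psph and Ddit3 of Chac1, and the ranges of all other neighbours in that order overlapped. In young libraries the order was Atf4, Shmt2 (152 CPM per kb), Asns (142), Phgdh (105.5), Psat1 (101), Mthfd2 (100.4), Psph (87.2), Ddit3 (32.7), Chac1 (17.2) and Trib3 (11.1). There Asns stood clear of Phgdh, Psph of Ddit3 and Ddit3 of Chac1, and the ranges of Atf4 and Shmt2 overlapped, as did those of the other neighbours. Psph thus took the fourth place in old libraries and the seventh in young libraries, and Asns the fifth in old libraries and the third in young libraries.

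The size of every change depends on how libraries are scaled. Scaled by library totals alone, all genes together had a median log2 change of -0.52, and of the 10 genes Atf4 alone was called higher (log2 change of 0.62, edgeR adjusted p = 0.00666). Asns (-0.50, adjusted p = 0.0425) and Mthfd2 (-0.77, adjusted p = 0.0248) were then called lower by edgeR, and the changes of Psat1 and Shmt2 turned to -0.20 and -0.24, neither of which passed. Relative to the median of all genes, the changes were nearly the same under both scalings. For Atf4 the relative change was 1.13 under each, for Phgdh 0.79 with TMM and 0.78 with totals, for Asns 0.012 under each, and for Mthfd2 -0.26 under each. Under totals, 718 genes were called higher and 2380 lower, against 1325 and 961 with TMM.

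Transcript length also moved with the comparison. The log2 change had a Spearman correlation of -0.36 with transcript length across 11356 genes, which share libraries and are not replicates. Genes were split by length into 5 groups of nearly equal size. Ddit3 and Chac1 belong to the shortest group, where 31.0% of genes were called higher, 7 of the 10 genes to the next, where 11.1% were, and Psat1 to the middle group, where 6.91% were. With offsets that removed each library's trend with length and GC content, the Atf4 change was 0.71 and kept its call (edgeR adjusted p = 0.00455). The other 4 calls were lost, with log2 changes of 0.97 for Trib3 (edgeR adjusted p = 0.0754), 0.40 for Psph (0.120), 0.37 for Phgdh (0.0534) and 0.022 for Ddit3 (0.970). Over all genes tested, 16.1% were called with these offsets.

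**Figure D3:**
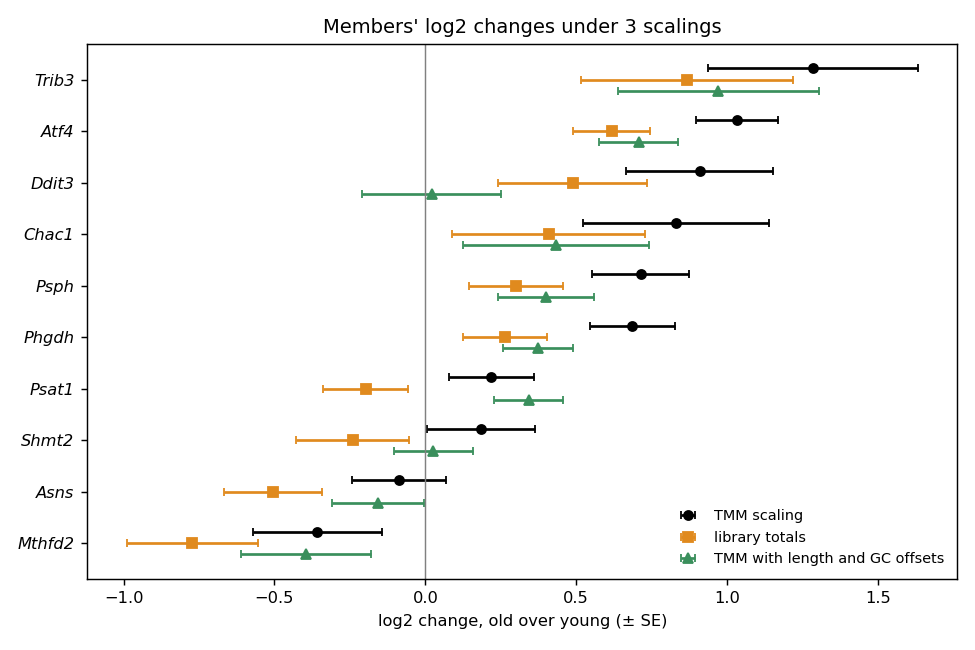
Log2 change (old over young, ± SE from the edgeR fit on 6 libraries) of the 10 genes under TMM scaling (black circles), library totals alone (orange squares) and TMM with length and GC offsets (green triangles). Trib3 and Atf4 lie right of 0 under all 3, Ddit3 is at 0.022 with the offsets, and Asns and Mthfd2 lie left of 0 under all 3.

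Further lists covered the rest of the pathway, with 77 genes tested, of which 9 rose and 13 fell, beside 11.2% higher and 8.14% lower over all genes. The number that fell was 4 without young library 1 or without young library 2, 6 without old library 1, 7 without old library 2, and 32 with library totals alone, while 8 to 10 rose in all of the alternatives. Over all genes, 2380 of 11805 were called lower with library totals alone. Of 20 other ATF4 targets and partners listed, 18 were tested, 8 rose and 1 fell. Their median log2 change was 0.42, and -0.0055 with library totals alone, which is 0.52 and 0.51 above the median of all genes. Eif4ebp1, which encodes the translation repressor 4E-BP1, had 1045, 1034 and 841 CPM in old libraries 1 to 3, against 292, 295 and 284 CPM in young libraries 1 to 3. The groups were far apart, and the rise was 1.75 ± 0.13 (SE) on the log2 scale (edgeR adjusted p = 1.24e-05). Stc2, a secreted glycoprotein induced by stress of the endoplasmic reticulum, had 89.6, 109 and 71.1 CPM in old libraries 1 to 3, against 3.29, 12.9 and 5.29 CPM in young libraries 1 to 3, a rise of 3.64 ± 0.46 (SE). The AP-1 repressor Jdp2 rose by 1.72 ± 0.20 and Cebpb, a C/EBP partner of ATF4, by 1.24 ± 0.17 (SE). However, 20.7% of the exon length of Cebpb overlaps other genes, the largest part with the opposite-strand gene Tmem189. Sesn2, an inhibitor of mTORC1 induced by ATF4 and p53, went the other way and fell by 1.73 ± 0.29 (SE; edgeR adjusted p = 0.00173). It had 15.8, 21.6 and 24.3 CPM in old libraries 1 to 3, against 71.7, 83.9 and 49.1 CPM in young libraries 1 to 3, without overlap. These 5 genes kept their calls in all 18 alternatives, but the change of Cebpb was 0.55 with the length and GC offsets.

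Of 12 aminoacyl-tRNA synthetases known as ATF4 targets, all were tested, 4 fell and none rose, beside 8.14% lower over all genes. With library totals alone 10 of the 12 were called lower, beside 2380 of 11805 over all genes. None of the 12 had a log2 change above 0 with TMM, beside 5356 of 11805 over all genes. Their median was -0.69, which is -0.59 relative to all genes under TMM and totals alike. With the length and GC offsets their median was -0.42, beside -0.10 over all genes, and 1 of the 12 had a log2 change above 0. Those offsets left 3 of the 12 called lower, beside 953 of 11805 over all genes. Wars, the tryptophanyl-tRNA synthetase, had 43.3, 54.3 and 51.4 CPM in old libraries 1 to 3, against 86.2, 97.5 and 92.2 CPM in young libraries 1 to 3. It fell by 0.89 ± 0.19 (SE) on the log2 scale (edgeR adjusted p = 0.00858) and kept its call in all 18 alternatives. Aars fell by 1.71 ± 0.40, Gars by 0.95 ± 0.24 and Yars by 0.78 ± 0.20 (SE). Gars lost its call without old library 1 or young libraries 1 or 2 (edgeR adjusted p up to 0.0599), and Yars without old libraries 1 or 3 or young libraries 1 or 2 (up to 0.0911). Aars lost it with the length and GC offsets (edgeR adjusted p = 0.0534), and 15.1% of its exon length overlaps other genes, mainly Exosc6 on the same strand.

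None of the 4 eIF2 kinases upstream of ATF4 passed the test. The list of 14 genes held these kinases, the eIF2 subunit gene Eif2s1, the 5 subunits of the exchange factor eIF2B, the phosphatase regulators Ppp1r15a and Ppp1r15b, which undo the eIF2 mark, and Oma1 and Dele1, which relay mitochondrial stress. All were tested, none rose and 2 fell, beside 8.14% lower over all genes. Calls in either direction made 14.3% of this list, beside 19.4% over all genes. The median log2 change was -0.48, and -0.27 with the length and GC offsets, beside -0.10 over all genes under each. With library totals alone 8 of the 14 were called lower, beside 2380 of 11805 over all genes. With the length and GC offsets 3 of the 14 were, beside 953 of 11805. Eif2ak1 (HRI, the haem sensor) had 21.1, 18.6 and 21.5 CPM in old libraries 1 to 3, against 29.8, 32.5 and 24.2 CPM in young libraries 1 to 3. These did not overlap, but the log2 change of -0.50 ± 0.29 (SE) did not pass (edgeR adjusted p = 0.282). It passed with library totals (-0.92, edgeR adjusted p = 0.0428) and was -0.051 with the length and GC offsets (edgeR adjusted p = 0.934). Eif2ak2 (PKR, the double-stranded RNA sensor) had a log2 change of -0.025 ± 0.55 (SE). Eif2ak1 and Eif2ak2 are named here after their values were seen. Eif2ak3 (PERK, the endoplasmic reticulum sensor) and Eif2ak4 (GCN2, the amino acid sensor) were at 8.15 and 6.28 CPM in old libraries and 6.93 and 5.39 CPM in young libraries on average, with log2 changes of 0.23 ± 0.59 and 0.22 ± 0.80 (SE). Their 95% intervals, -1.07 to 1.54 and -1.54 to 1.98, hold a doubling and its reverse. The genes that fell encode subunits of eIF2B, the exchange factor that phosphorylated eIF2 blocks: Eif2b5 by 1.01 ± 0.26 and Eif2b1 by 0.74 ± 0.21 (SE). Eif2b5 lost its call without old libraries 1 or 2 or young library 2 (edgeR adjusted p up to 0.106), and Eif2b1 kept it when old library 3 was left out and lost it without any of the others (up to 0.124).

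Of 10 amino acid carriers listed, 9 were tested, 1 rose and 1 fell, with a median log2 change of 0.15 (-0.29 with library totals alone). That is 22.2% called, beside 19.4% over all genes. The arginine and lysine carrier Slc7a3 rose by 1.21 ± 0.32 and its relative Slc7a1 fell by 0.97 ± 0.29 (SE). Slc7a3 lost its call without old library 1 or young libraries 1 or 2 (edgeR adjusted p up to 0.0917) and with library totals (0.0887). Slc7a1 lost it without old libraries 2 or 3 or young libraries 1 or 2 (up to 0.172) and with the length and GC offsets (log2 change of -0.39, adjusted p = 0.384). The folate one-carbon and glycine cleavage list had 18 of 19 genes tested, with a median of -0.13. None rose and 3 fell (16.7% called, beside 19.4% over all genes). Beside Mthfd1 these were Mtr, methionine synthase, by 2.11 ± 0.57, and Sfxn1, which carries serine into mitochondria, by 0.62 ± 0.18 (SE). Mtr kept its call when old library 1 was left out and Sfxn1 when old library 3 was, and each lost it without any of the others (edgeR adjusted p up to 0.0816 for Mtr and 0.133 for Sfxn1). Both lost it with the length and GC offsets (0.0880 and 0.0876). Of the methionine cycle, transsulfuration and purine list, 6 of 7 genes were tested, with a median of -0.19. None rose and 2 fell (33.3% called, beside 19.4% over all genes). They were the purine synthesis enzymes Gart, by 1.22 ± 0.31, and Atic, by 0.79 ± 0.22 (SE), both of which use folate one-carbon units. Gart kept its call when old library 3 or young library 3 was left out and Atic when old library 2 was, and each lost it without any of the others (edgeR adjusted p up to 0.0859 for Gart and 0.123 for Atic). Atic also lost it with the length and GC offsets (0.0710). Of the exon length of Gart, 19.7% overlaps other genes, the largest part with the opposite-strand gene Gm15964.

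**Figure D4:**
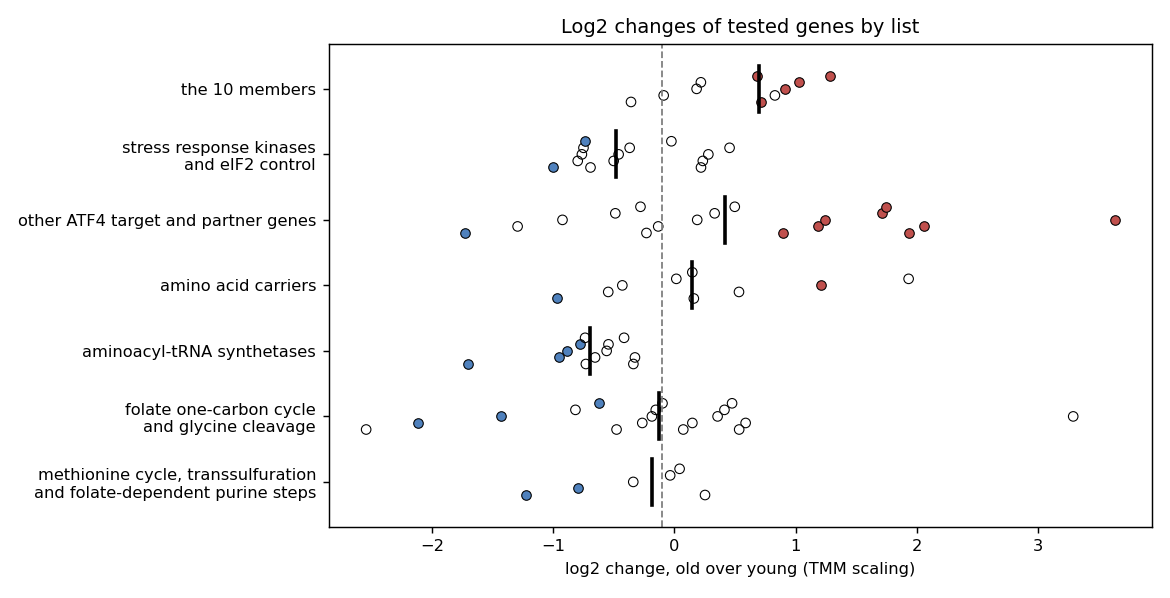
Log2 change (old over young, TMM scaling) of every tested gene by list, with filled points for genes past an adjusted p of 0.05 (red higher, blue lower in old libraries), open points for the others, a black bar at each list's median and a dashed line at the median of all genes tested, -0.10. The 10 genes (top) have a median of 0.70, other ATF4 targets and partners 0.42 and aminoacyl-tRNA synthetases -0.69.

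Among the 77 tested genes of these lists, the patterns most like Atf4 over the 6 libraries were those of Eif4ebp1, Cth and Nupr1, with Pearson correlations of log2 CPM of 0.95, 0.93 and 0.93. They describe 6 libraries in 2 groups, and 558 other tested genes correlated with Atf4 more closely than Eif4ebp1 did. Cth, which makes cysteine from cystathionine, had 129, 137 and 92.9 CPM in old libraries 1 to 3, against 26.2, 21.0 and 46.5 CPM in young libraries 1 to 3. It rose by 1.94 ± 0.30 (SE) on the log2 scale (edgeR adjusted p = 0.00120). Nupr1, a small chromatin protein of the stress response, rose by 0.90 ± 0.15 (SE; edgeR adjusted p = 0.00229), but with the length and GC offsets its change was -0.018 (edgeR adjusted p = 0.945). Within the 10 genes, Atf4 correlated over the 6 libraries most closely with Psph and Phgdh (0.95 and 0.93), and its correlation was -0.32 with Asns and -0.73 with Mthfd2. These values cannot be told apart from the difference between the 2 groups. The 558 genes closer to Atf4 than Eif4ebp1 were closer than Psph and Phgdh as well.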

How the data were processed

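Sorting relied on ILC2 surface markers, RNA on a Trizol-LS extraction and libraries on standard Illumina methods, per the labels' protocols. The authors deposited unnormalized counts as 1 table, a whole number for each symbol in each library. Build mm10 and, among other tools, STAR 2.5.3a and Cufflinks 2.0 stand in the submitters' processing notes. Which tool counted reads, with which annotation and strand rule, is not given in the sources used here, so reads of overlapping genes cannot be told apart. Columns were tied to libraries by the names in the labels. A date stands in place of a symbol in 27 rows (0.153% of counts), kept in library sizes and tests and never named.

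The main test used edgeR 4.0.16 in R 4.3.3: filterByExpr (minimum count 10, minimum total 15), TMM scaling, glmQLFit and glmQLFTest on all 6 libraries, with Benjamini-Hochberg adjustment over the 11805 genes tested and a threshold of 0.05. The standard error is the size of the log2 change divided by the root of F. The test was checked on simulated data with 200 changed genes. It missed most of them, so a gene that did not pass may still differ. Coordinates, transcript lengths (longest basic transcript) and overlaps came from GENCODE vM21 (GRCm38). One listed gene, Dele1, was matched through an older symbol. Alternatives were DESeq2 1.42.0, limma-voom 3.58.1, other scalings and filters, robust dispersion, a prior count of 2, a replicate block, length and GC offsets (smooth trends from mgcv 1.9.3 on log2 CPM) and leaving out each library. No library was a repeat of another: within a group the chi-square statistic over its degrees of freedom was 35.7 to 89.2. The 10 genes, the lists and the alternatives were chosen with earlier results of these data known. Named are the 10 genes and, per list, up to 4 changed genes with the smallest p, plus Shmt1, Mthfd2l, Mthfd1, Eif2ak3, Eif2ak4, Sesn2 and the 3 list genes most correlated with Atf4.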

Additional observations from a re-analysis of the deposited data

How the results depend on the processing

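Of the 180 log2 changes of the 10 genes over 18 alternatives, 156 kept their side of the threshold, 19 lost a call and 5 gained one. With library totals as the sole scaling 718 genes were higher and 2380 lower, 3 of the 10 genes and 40 of the other pathway genes were called (main analysis: 1325, 961, 5 and 22), and log2 changes were 0.49 for Ddit3, 0.87 for Trib3, 0.27 for Phgdh and 0.30 for Psph (calls lost) and -0.50 for Asns and -0.77 for Mthfd2 (calls gained). Over all genes tested, 26.2% were called with library totals and 19.4% in the main analysis. With length and GC offsets 1 of the 10 was called, beside 16.1% over all genes tested. Log2 changes were then 0.022 for Ddit3, 0.97 for Trib3, 0.37 for Phgdh and 0.40 for Psph. DESeq2 added Chac1 (0.86). Nupr1 turned to -0.018 with these offsets and to -0.012 with offsets and block. The cause of these shifts was not tested.

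Libraries share replicate numbers across groups, but deviations of same-numbered libraries correlated by 0.0196, 0.00883 and 0.0414, so the numbers were not taken as pairs; 5 of 6 libraries correlated best with their own number, a hint from the data only. A replicate block gave 2008 changed genes against 2286, 4 of the 10 genes, and 1.33 for Trib3, whose call it lost (adjusted p = 0.0550), and it also ended the call of Sfxn1 (-0.64, adjusted p = 0.0583). The block with length and GC offsets gave 815 higher genes, 1 of the 10, and 0.040 for Ddit3, 1.04 for Trib3, 0.37 for Phgdh and 0.41 for Psph.

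Leaving out 1 library gave 1314 (without young library 1) to 2141 changed genes, 915 to 1344 higher and 399 to 849 lower, 3 to 6 of the 10 genes and 13 to 25 other pathway genes. Log2 changes ran from 0.83 to 1.06 for Ddit3, 1.02 to 1.54 for Trib3, 0.64 to 1.18 for Chac1 and -0.66 to -0.22 for Mthfd2. Where a library was left out, its group's spread rests on the other libraries. No listed gene tested had 0 counts in a whole group, so list medians with bounds were the same. With exons merged in place of the longest transcript, a choice made after seeing the data, the differences in isozyme share were 1.28 and -0.40 percentage points. Listed genes that averaged under 10 CPM over the 6 libraries had standard errors from 0.57 for Mtr to 1.61 for Gldc. The cause of these wide errors was not tested.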
